A study of Mus musculus with 9 samples.

Results

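The 7 genes described here are the TET dioxygenases Tet1, Tet2 and Tet3, the thymine DNA glycosylase Tdg, and the growth-arrest and DNA-damage-inducible genes Gadd45a, Gadd45b and Gadd45g. They were taken by exact gene name from the deposited table of normalised counts, in which they are 7 of 20087 named genes. All 7 passed the filter on low values (3 or more of the 9 libraries at 10 or higher), which 13343 genes in all passed. Polyadenylated RNA came from mouse B6D2F1 embryos at E2.75, whose zygotes had been injected with siRNA and which were pooled 60 to a library. Embryos of the Hdac1/2 cKD group had received siRNA against both histone deacetylases Hdac1 and Hdac2, Sin3a KD embryos siRNA to Sin3a, a scaffold protein that assembles these deacetylases into a corepressor, and NC embryos a nonspecific control siRNA, with 3 libraries in each group. Every group was thus injected, none carried a deletion, and the labels do not say whether the pools of a group came from separate collections, so p-values measure the spread between these libraries. In whole embryos, fewer cells of a type and less RNA per cell cannot be told apart.

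TET enzymes oxidise methylated cytosine step by step, and TDG excises the most oxidised forms, after which base excision repair fills the gap with an unmodified cytosine. Gadd45 proteins have no known enzymatic activity of their own; they are small stress-induced adaptors that bind Pcna, the cell cycle kinase Cdk1 and the MAP kinase kinase kinase Map3k4, and Gadd45a and Gadd45b have been linked to recruiting TDG and repair proteins to methylated DNA. In the mouse embryo, maternal Tet3 acts on the paternal genome of the zygote, and Tet1 and Tet2 are the family members of pluripotent cells. The comparisons ask whether transcripts of these genes differ when the deacetylases, or the Sin3a scaffold, are lowered before the blastocyst forms.

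The bases upstream of the RefSeq transcription start are shown for Tdg and Gadd45b, which were higher in Hdac1/2 cKD embryos than in both other groups, and for Gadd45g, whose values in both knockdowns lay below those of NC. Sequences are on build GRCm38.p6, read 5′ to 3′ on the strand of the gene, which is forward for all 3. They begin 250 bases before the RefSeq start and end before the outermost annotated start of the gene. Capitals mark matches, on either strand, to the TATA box (TATAAA), the CCAAT box (CCAAT), the GC box (GGGCGG), the E-box (CACGTG), the cAMP response element (TGACGTCA) or the octamer (ATGCAAAT), and no match overlapped another.
Gadd45b, chr10:80929841-80930072: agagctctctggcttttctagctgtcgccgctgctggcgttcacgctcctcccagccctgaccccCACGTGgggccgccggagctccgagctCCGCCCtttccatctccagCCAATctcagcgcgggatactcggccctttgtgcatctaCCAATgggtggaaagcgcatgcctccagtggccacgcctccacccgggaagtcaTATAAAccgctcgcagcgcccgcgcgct
Tdg, chr10:82629588-82629827: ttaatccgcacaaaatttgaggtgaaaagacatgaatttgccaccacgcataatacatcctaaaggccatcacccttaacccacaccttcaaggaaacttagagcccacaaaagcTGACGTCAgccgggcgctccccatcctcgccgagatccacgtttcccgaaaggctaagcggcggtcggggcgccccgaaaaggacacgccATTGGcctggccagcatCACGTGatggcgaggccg
Gadd45g, chr13:51846425-51846674: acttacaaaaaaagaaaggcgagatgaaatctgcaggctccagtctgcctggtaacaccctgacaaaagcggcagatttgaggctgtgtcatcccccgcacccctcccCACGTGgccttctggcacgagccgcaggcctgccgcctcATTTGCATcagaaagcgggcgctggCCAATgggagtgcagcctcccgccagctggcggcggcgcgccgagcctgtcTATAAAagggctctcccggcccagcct
The Gadd45b and Gadd45g windows shared a TATAAA, at -46 and -27 from the RefSeq start, a match that 12.4% of the 32851 RefSeq promoter windows of the same length held. All 3 held CACGTG, found in 6.02% of all windows, and CCAAT, found in 33.8%. TGACGTCA was present in the Tdg window, at -135, and in no other window of the 7 genes, against 1.55% of all windows. ATGCAAAT lay in the windows of Gadd45g and Gadd45a (1.60% of all), and GGGCGG in those of Tet1, Tet2, Tet3, Gadd45a and Gadd45b (32.7% of all). The 7 windows were rich in CpG, with 51 in Tet2, 22 in Gadd45b, 19 in Tdg, 17 in Tet3, 16 in Gadd45g, 15 in Tet1 and 11 in Gadd45a, where the median of all windows was 6. The windows of Tet1, Tet2 and Tet3 lie inside the annotated genes, downstream of their outermost annotated starts. A match is a run of letters in these windows and does not show that a factor binds there.

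The sum of normalised counts was between 11.9 M and 13.5 M in each library, and the depth estimated from the smallest step between values ran from 8.51 M reads in NC replicate 3 to 16.7 M in NC replicate 1. NC replicate 3 stood apart, with 28.4% of genes listed at 0 against 13.2% to 23.4% in the other libraries. Several fold changes are therefore also given without it, while the correlations and mean family shares below include it. Hdac1 and Hdac2 in Hdac1/2 cKD embryos were at 16.9% and 13.3% of NC, and Sin3a in Sin3a KD embryos was at 29.0%. In Sin3a KD embryos Hdac1 was at 34.3% of NC (adjusted p = 0.00297), so the 2 knockdowns have a lowered Hdac1 in common, while Hdac2 was at 90.1%. The libraries were sequenced on different lanes (lanes 2, 2 and 3 for Hdac1/2 cKD, lanes 4, 3 and 3 for Sin3a KD, lanes 5, 2 and 3 for NC), and values within shared lanes are given where they bear on a call. Summed over 8 markers of the morula and its first lineages, normalised counts were 19597 to 22491 in Hdac1/2 cKD, 26054 to 27661 in Sin3a KD and 27403 to 30122 in NC, with none of the 8 at 0. These sums are mostly Pou5f1, and single markers moved by more. The trophectoderm regulators Cdx2, Gata3 and Tfap2c were at 155 to 205, 334 to 398 and 2336 to 2547 in Hdac1/2 cKD, 705 to 1036, 696 to 880 and 3422 to 3994 in Sin3a KD, and 955 to 1461, 704 to 807 and 3795 to 4870 in NC. Their values were thus lowest in the libraries in which Tdg and Gadd45b were highest. So were those of Pou5f1, at 13955 to 16141 in Hdac1/2 cKD, 19180 to 20930 in Sin3a KD and 19065 to 19477 in NC. The remaining markers did not have their lowest values in Hdac1/2 cKD. The keratin Krt8 was at 1177 to 1568 in Hdac1/2 cKD, 391 to 566 in Sin3a KD and 1095 to 2098 in NC. Krt18 was at 647 to 719, 344 to 406 and 499 to 703 in the same order of groups. Nanog was at 828 to 1033, 422 to 875 and 1012 to 1738, and the Sox2 values of the groups overlapped. Markers of other material had low sums, with 255 to 295, 260 to 302 and 198 to 282 for 9 oocyte genes, and 50.1 to 74.5, 38.9 to 78.1 and 17.5 to 51.5 for 5 cumulus genes in the same order of groups. For 3 blood genes the sums were 19.3 to 69.5, 7.77 to 28.4 and 12.6 to 24.4, and for 7 genes of the 2-cell stage 187 to 286, 195 to 347 and 221 to 271, with Zscan4c at 0 in every NC library. The part of these markers and of depth in the results below was not tested.

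Of the 7 genes, Gadd45b and Tdg were higher in Hdac1/2 cKD than in NC, none was lower, and 5 did not pass an adjusted p below 0.05. The limma test called 15.6% of all tested genes in that comparison, 7.81% as higher and 7.8% as lower, and gave 29.6% an unadjusted p below 0.05, as it did 5 of the 7. In Sin3a KD against NC none of the 7 passed (0 higher and 0 lower, with Tet2 and Gadd45g at an unadjusted p below 0.05), where 7.96% of all tested genes were called, 3.6% as higher and 4.36% as lower, and 23.9% had an unadjusted p below 0.05. In Hdac1/2 cKD against Sin3a KD, Gadd45b, Tdg and Tet1 were higher and none was lower, where 17.3% of tested genes were called with 8.49% as higher and 8.78% as lower, and 30.3% had an unadjusted p below 0.05, as 3 of the 7 did. Over all tested genes Hdac1/2 cKD against NC had 1042 higher and 1041 lower calls, and 1386 and 675 when totals were made equal; Sin3a KD against NC had 480 and 582, and 741 and 425 with equal totals. Values of the 2 groups did not overlap for 5 of 7 genes in Hdac1/2 cKD against NC (33.1% of all tested genes), for 1 of 7 in Sin3a KD against NC (27.1%) and for 4 of 7 in Hdac1/2 cKD against Sin3a KD (39.7%). The median log2 fold change of the 7 was 0.49, -0.20 and 0.74 in these comparisons, beside 0.03, 0.03 and 0.01 over all tested genes. Both knockdowns were set against the same NC libraries, so these comparisons are not independent of each other.

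**Figure D1:**
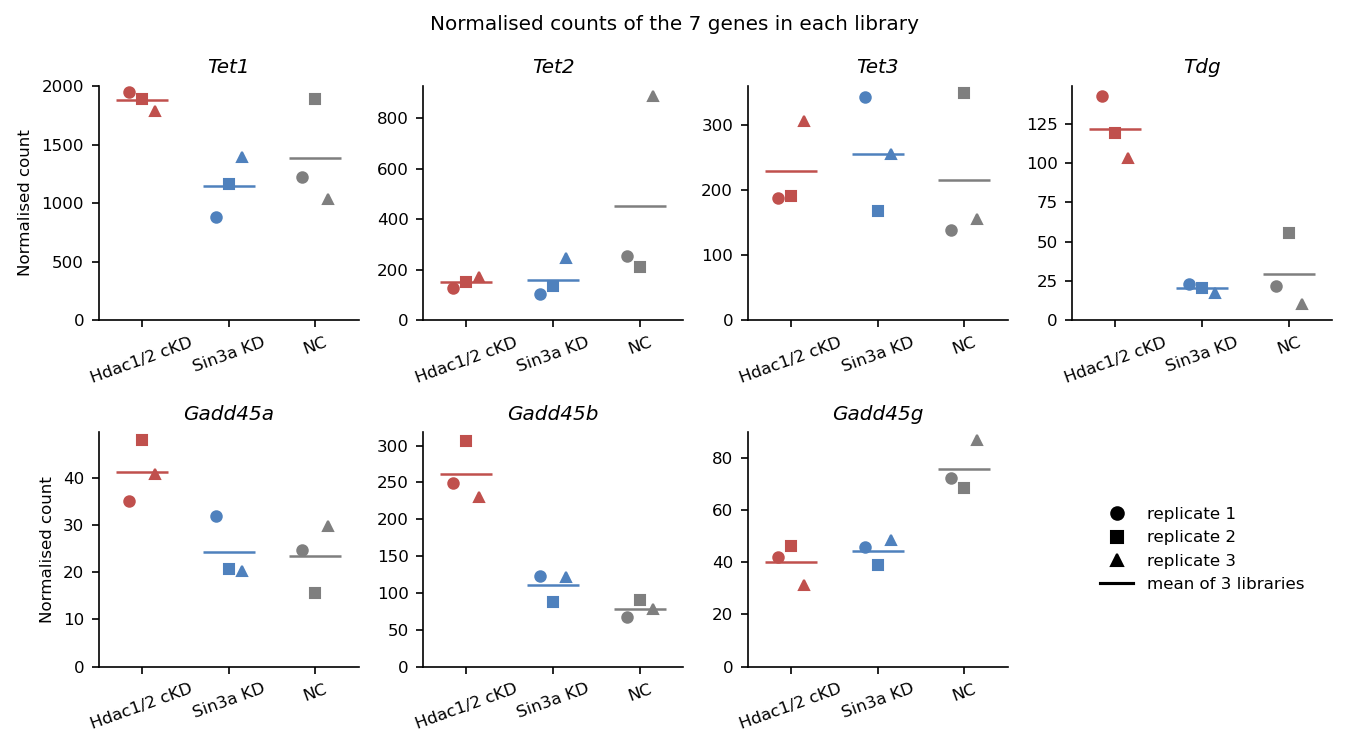
Normalised count (linear axes from 0, a separate scale for each gene) of the 7 genes in each of the 9 libraries, with a line at the mean of each group of 3. The Hdac1/2 cKD points of Gadd45b (231 to 306) and Tdg (103 to 142) lie above all others, those of both knockdowns for Gadd45g (31.4 to 48.7) lie below the NC points, and 1 NC library of Tet2 (889) lies far above the rest.

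Tet1, on the reverse strand of chr10:62804570-62908996 (GRCm38), codes for the TET enzyme that binds CpG-rich promoters through its CXXC domain. Its normalised counts were 1950, 1895 and 1793 in Hdac1/2 cKD, 880, 1165 and 1398 in Sin3a KD libraries, and 1223, 1893 and 1035 in NC libraries. The Hdac1/2 cKD libraries all lay above the Sin3a KD libraries, while NC replicate 2 was as high as the Hdac1/2 cKD libraries and the other NC libraries lay among those of Sin3a KD. Hdac1/2 cKD exceeded Sin3a KD by a log2 fold change of 0.74 (SE 0.21, limma adjusted p = 0.0282). That call ended without any 1 of the Hdac1/2 cKD libraries (adjusted p 0.0890, 0.0810 and 0.0643 without replicates 1, 2 and 3), without Sin3a KD replicate 1 or 2 (0.116 and 0.0641), and with lane as a factor (0.484). Against NC the Hdac1/2 cKD value was 0.49 (95% interval 0.04 to 0.94, adjusted p = 0.136), and 0.30 without NC replicate 3 (adjusted p = 0.369). It became 0.74 with an adjusted p of 0.0118 when NC replicate 2 was left out. Within lane 2, which holds that library, means were 1923 in 2 Hdac1/2 cKD libraries and 1893 in the NC library, and within lane 3 the values were 1793 in Hdac1/2 cKD and 1035 in NC. For Sin3a KD against NC the log2 fold change was -0.25 (95% interval -0.70 to 0.20, adjusted p = 0.507).

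Tet2, on the reverse strand of chr3:133463679-133545139, codes for the family member that lacks a CXXC domain of its own. It had normalised counts of 126, 149 and 172 in Hdac1/2 cKD, 102, 133 and 246 in Sin3a KD libraries, and 256, 209.7 and 889 in NC. All 3 Hdac1/2 cKD libraries lay below all NC libraries, Sin3a KD replicate 3 lay between NC replicates 1 and 2, and NC replicate 3 held more than 3 times as much as any other library. The log2 fold changes against NC were -1.29 for Hdac1/2 cKD (SE 0.50, adjusted p = 0.109) and -1.27 for Sin3a KD (SE 0.50, adjusted p = 0.147), so neither passed. Without NC replicate 3 they were -0.64 and -0.63 (adjusted p = 0.235 and 0.298), and without NC replicate 2 the Hdac1/2 cKD value passed, at an adjusted p of 0.0461. The knockdowns differed from each other by -0.01, with a 95% interval of -1.11 to 1.08.

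Tet3, on the reverse strand of chr6:83362373-83459084, codes for the enzyme that the egg supplies. Counts were 188, 192 and 307 in Hdac1/2 cKD, 344, 168 and 257 in Sin3a KD libraries, and 139.6, 350.2 and 156 in NC. Each group had libraries under 200 and libraries over 250, and the groups overlapped in every comparison. The log2 fold changes were 0.18 for Hdac1/2 cKD against NC (95% interval -0.60 to 0.96, adjusted p = 0.784), 0.32 for Sin3a KD against NC (-0.46 to 1.10, adjusted p = 0.636) and -0.14 for Hdac1/2 cKD against Sin3a KD (-0.92 to 0.64, adjusted p = 0.839). These intervals run from -0.92 to 1.10 between them, so differences of up to about 2-fold are not excluded.

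Tdg, on the forward strand of chr10:82629828-82650799, codes for the glycosylase that removes oxidised cytosine and mismatched thymine. Its normalised counts were 142, 119 and 103 in Hdac1/2 cKD, 23.2, 20.4 and 17.4 in Sin3a KD libraries, and 21.9, 55.2 and 10.2 in NC. Every Hdac1/2 cKD library lay above every library of the other groups, the Sin3a KD libraries lay close together, and the NC libraries spread more than 5-fold. Tdg rose in Hdac1/2 cKD by a log2 fold change of 2.33 against NC (SE 0.52, limma adjusted p = 0.00885) and of 2.52 against Sin3a KD (SE 0.52, adjusted p = 0.00479). Without NC replicate 3, in which the estimated step puts Tdg at 6.63 reads, the change against NC was 1.76 (adjusted p = 0.0190). Within lane 2 the means were 131 in 2 Hdac1/2 cKD libraries and 55.2 in the NC library (log2 difference 1.23), and within lane 3 the values were 103 in Hdac1/2 cKD and 10.2 in NC (3.23). With lane as a factor the call against NC held (adjusted p = 0.0405) and that against Sin3a KD ended (0.132), while the log2 difference within lane 3 was 2.40 (103 in Hdac1/2 cKD and a mean of 18.9 in 2 Sin3a KD libraries). For Sin3a KD against NC the log2 fold change was -0.20 (95% interval -1.32 to 0.92, adjusted p = 0.860).

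Part of the Tdg transcript is shared with other genes, so how reads were split between them is uncertain. By alignment of GENCODE transcripts, 4 processed pseudogenes are 98.7% to 99.3% identical to Tdg over 203 to 2968 bases, of which Gm9855 (99.2% over 1194 bases) is the one analysed here. Gm9855 had normalised counts of 22.3, 14.8 and 30.1 in Hdac1/2 cKD, was listed at 0 in all Sin3a KD libraries, and had 0, 0 and 7.77 in NC. It was thus highest in the same libraries as Tdg, and with Tdg and Gm9855 summed, an alternative chosen after seeing the data, the log2 fold changes were 2.32 against NC (adjusted p = 0.00330) and 2.77 against Sin3a KD (adjusted p = 0.000846). Glt8d2, on the opposite strand, overlaps the 3′ end of Tdg by 367 bases, and had 19.2, 0 and 44.3 in Hdac1/2 cKD, 0, 0.67 and 2.36 in Sin3a KD libraries, and 2.82, 3.01 and 9.13 in NC. The Hdac1/2 cKD library with Glt8d2 at 0 had a Tdg value of 119, between those of the other Hdac1/2 cKD libraries. The split of shared reads is as uncertain in that library, and their part in the Tdg values was not tested.

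Gadd45b, on the forward strand of chr10:80930073-80932204, codes for a member of the Gadd45 family, whose proteins bind and activate Map3k4. Its normalised counts were 249, 306 and 231 in Hdac1/2 cKD, 123, 87.6 and 121.5 in Sin3a KD libraries, and 67.0, 89.9 and 77.6 in NC. The Hdac1/2 cKD libraries all lay above the others, and 2 of 3 Sin3a KD libraries lay above all NC libraries. Gadd45b rose in Hdac1/2 cKD by a log2 fold change of 1.73 against NC (SE 0.25, limma adjusted p = 0.000626) and of 1.24 against Sin3a KD (SE 0.25, adjusted p = 0.00439). The change against NC was also 1.73 without NC replicate 3, and within lanes the log2 differences were 1.61 (lane 2) and 1.56 (lane 3). The call against Sin3a KD ended with lane as a factor (adjusted p = 0.0765), while the log2 difference within lane 3 was 1.15. For Sin3a KD against NC the log2 fold change was 0.49 (95% interval -0.06 to 1.03, adjusted p = 0.263).

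Gadd45a, on the reverse strand of chr6:67035096-67037457, codes for a target of the stress-activated tumour suppressor Trp53. It had normalised counts of 35.2, 48.1 and 40.8 in Hdac1/2 cKD, 31.9, 20.6 and 20.3 in Sin3a KD libraries, and 24.8, 15.6 and 30.0 in NC. All Hdac1/2 cKD values lay above those of both other groups, which overlapped, yet no difference passed the test. The log2 fold change of Hdac1/2 cKD was 0.83 against NC (SE 0.45, adjusted p = 0.246) and 0.77 against Sin3a KD (SE 0.45, adjusted p = 0.283), and that of Sin3a KD against NC was 0.06 (95% interval -0.91 to 1.04, adjusted p = 0.953). The counts are low and the intervals wide, and the gene also overlaps the noncoding E230016M11Rik on the opposite strand, which was not analysed here.

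Gadd45g, on the forward strand of chr13:51846678-51848468, codes for a paralog known in the mouse for its part in testis determination. Normalised counts were 42.1, 46.4 and 31.4 in Hdac1/2 cKD, 45.8, 38.9 and 48.7 in Sin3a KD libraries, and 72.3, 68.7 and 87.1 in NC. The values of both knockdowns lay below those of every NC library. The log2 fold changes against NC were -0.92 for Hdac1/2 cKD (SE 0.34, unadjusted p = 0.0172 and adjusted p = 0.0853 in limma) and -0.76 for Sin3a KD (SE 0.34, unadjusted p = 0.0427 and adjusted p = 0.191), so neither passed over all tested genes. Without NC replicate 3 they were -0.82 and -0.66 (adjusted p = 0.178 and 0.341). The knockdowns differed from each other by -0.16 (95% interval -0.89 to 0.57). The fold changes against NC were thus positive for Gadd45b and negative for Gadd45g in both knockdowns, signs that held in every alternative tried, with totals made equal among them. Those alternatives refit the same libraries with a shared NC group, so they are not separate evidence. Of these changes only that of Gadd45b in Hdac1/2 cKD passed in the main fit.

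**Figure D2:**
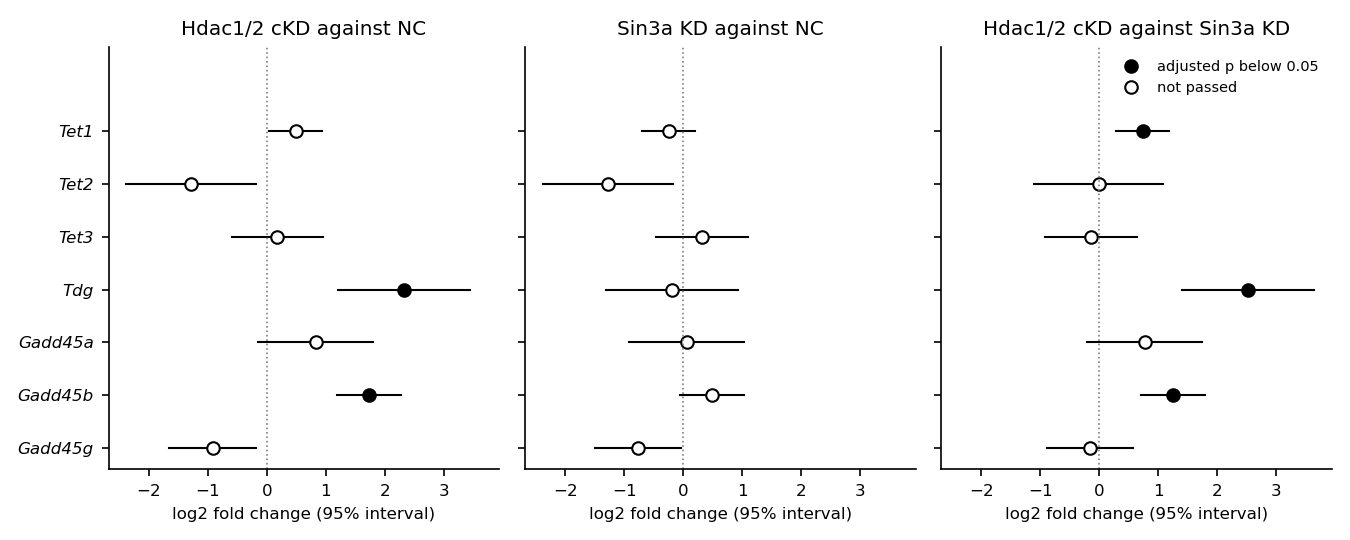
Log2 fold change (points) and 95% interval (lines) of the 7 genes from limma on log2(normalised count + 1), with filled points where the adjusted p over all tested genes was below 0.05. Filled points stand for Tdg (2.33) and Gadd45b (1.73) in Hdac1/2 cKD against NC, for none in Sin3a KD against NC, and for Tet1 (0.74), Tdg (2.52) and Gadd45b (1.24) in Hdac1/2 cKD against Sin3a KD.

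Levels of different genes were compared as normalised counts per kilobase, with the mean length of the coding transcripts of each gene in GENCODE vM21. With that length Tet1 had the highest level in all groups, at a mean of 471 in Hdac1/2 cKD (449 to 489), 288 ± 65.0 in Sin3a KD and 347 ± 113 in NC (SD, n = 3 each). In Hdac1/2 cKD it was followed by Gadd45b (259.7 ± 39.0), both apart from the rest in every library. Then came Tdg (68.5 ± 11.1), Gadd45a (51.7), Tet3 (39.7), Gadd45g (37.3) and Tet2 (31.3), each overlapping the next in this order. In Sin3a KD the order was Gadd45b (109.7 ± 19.7), Tet3 (44.4), Gadd45g (41.5), Tet2 (33.6), Gadd45a (30.3) and Tdg (11.4 ± 1.63), with Gadd45b above and Tdg below all others. In NC the level of Tet2 (94.6 ± 79.5), Gadd45b (77.5 ± 11.3) and Gadd45g (71.0 ± 9.08) overlapped, and Tet3 (37.3), Gadd45a (29.3) and Tdg (16.4) followed. That place of Tet2 rests on NC replicate 3 (186 per kilobase). In NC replicates 1 and 2 Tet2 was at 53.6 and 43.9, below every Gadd45b (66.5 to 89.2) and Gadd45g (64.2 to 81.3) library of NC. Tdg overlapped Gadd45a in Hdac1/2 cKD and in NC, and lay below it in every Sin3a KD library. The order depends on the transcript length used. With the longest coding transcript instead, chosen after seeing the data, Gadd45b led in Hdac1/2 cKD (204 per kilobase, against 131 for Tet1) and in Sin3a KD (86.1, against 79.9 for Tet1, with overlap), and Tet1 led in NC (96.3). Tdg then followed Gadd45g in Hdac1/2 cKD (34.8 and 37.3, with overlap) and was last in both other groups.

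Within the Gadd45 family the composition differed between the 3 groups. Gadd45b made up 74.7%, 74.6% and 74.0% of the summed Gadd45 level per kilobase in Hdac1/2 cKD, 59.5%, 58.3% and 63.0% in Sin3a KD libraries, and 40.3%, 51.6% and 39.3% in NC. The groups did not overlap in this share, and the mean differences were 30.7 percentage points for Hdac1/2 cKD against NC, 16.5 for Sin3a KD against NC and 14.2 for Hdac1/2 cKD against Sin3a KD. Gadd45g had the opposite order, at 10.7% ± 1.22 in Hdac1/2 cKD, 23.0% ± 1.83 in Sin3a KD embryos and 39.9% ± 2.39 in NC, while Gadd45a was at 14.9%, 16.7% and 16.4%. Shares of a family add up to a fixed total, so a larger Gadd45b share leaves less for the others. The Gadd45g level itself was 37.3 per kilobase in Hdac1/2 cKD, 41.5 in Sin3a KD and 71.0 in NC, with overlap between the knockdowns. With 3 libraries against 3 an exact permutation test cannot give a p below 0.10, so the shares are a description. Among the Tet genes, Tet1 was the main transcript, at 86.9% ± 3.07, 78.4% ± 5.24 and 72.2% ± 15.0 in Hdac1/2 cKD, Sin3a KD and NC (SD, n = 3 each). In NC replicate 3, Tet1 stood at 54.9% and Tet2 at 39.4%, apart from the other NC libraries, in which Tet1 was at 79.8% and 81.9%. The Tet3 share was 7.33% ± 2.22 in Hdac1/2 cKD, 12.7% ± 6.18 in Sin3a KD embryos and 7.49% ± 2.60 in NC, a spread within which the groups overlapped.

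**Figure D3:**
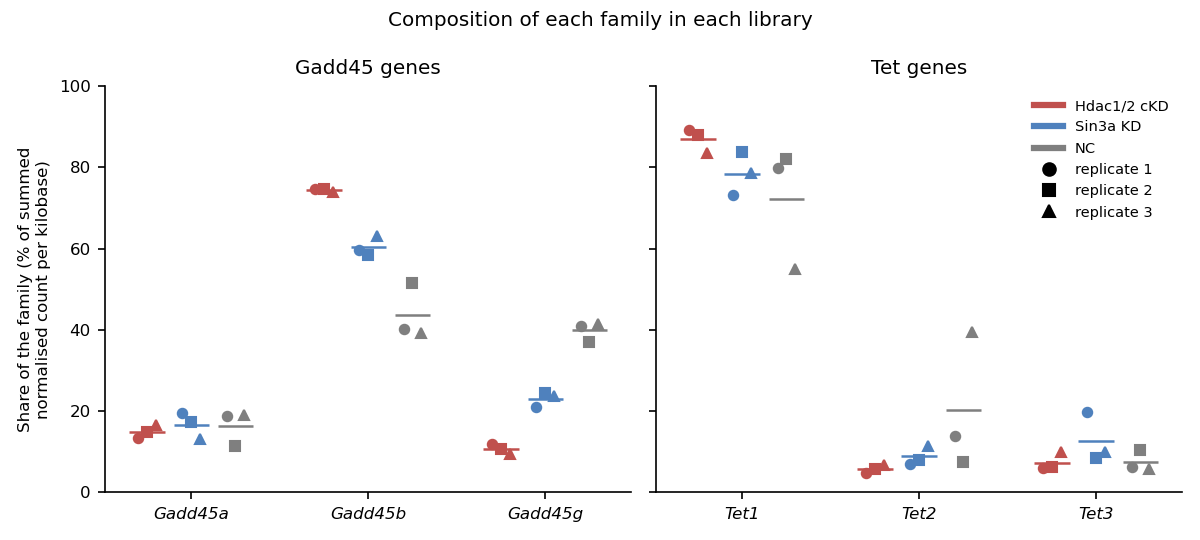
Share of each gene in the summed normalised count per kilobase of its family (percent, linear axis from 0 to 100) in each library, with a line at the mean of 3. Gadd45b is at 74.0% to 74.7% in Hdac1/2 cKD, 58.3% to 63.0% in Sin3a KD and 39.3% to 51.6% in NC, with Gadd45g in the opposite order, while the Tet shares of NC replicate 3 stand apart from the other NC libraries. Shares of a family add up to a fixed total, so they are not independent of each other.

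Genes that work with the 7 were counted in 5 lists with 48 genes, of which 41 were tested; Neil2, Apobec1, Apobec2, Cxxc4, Prdm14, Nfkb1 and Atf3 were below the filter. In Hdac1/2 cKD against NC 7 were higher and 2 lower (22.0% of 41, against 15.6% of all tested genes), in Sin3a KD against NC 3 were higher and 2 lower (12.2%, against 7.96%), and in Hdac1/2 cKD against Sin3a KD 6 were higher and 2 lower (19.5%, against 17.3%). The median log2 fold changes of the 41 were 0.04, -0.06 and 0.12. The lists were chosen with earlier results of these data known, so the called shares here and below are descriptions.

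Of the Gadd45 partners, 10 were listed and tested, and 3 rose, none fell and 7 did not pass in Hdac1/2 cKD against NC (median log2 fold change 0.27). Called partners made up 30.0%, against 15.6% of all tested genes. Map3k4, the kinase that Gadd45 proteins switch on, had normalised counts of 565, 639.7 and 601 in Hdac1/2 cKD, 415, 417 and 403 in Sin3a KD libraries, and 258, 287 and 211 in NC. The groups did not overlap and kept the order seen for the Gadd45b means. Map3k4 rose by 1.26 in Hdac1/2 cKD against NC (SE 0.16, limma adjusted p = 0.000291), a call kept in all 20 alternatives. In Sin3a KD it rose by 0.72 against NC (SE 0.16, adjusted p = 0.0181), a call kept in 13 of 20 alternatives, with an adjusted p of up to 0.131. That call ended, among others, without NC replicate 3 (0.0515), Sin3a KD replicate 1 (0.0722) or Sin3a KD replicate 3 (0.0627), and with lane as a factor (0.107). Mapk14, a stress-activated MAP kinase downstream of Map3k4, had 2726, 2836 and 2361 in Hdac1/2 cKD, 1136, 1105 and 980 in Sin3a KD libraries, and 887, 966 and 815 in NC. Its Hdac1/2 cKD libraries stood more than 2-fold above every other library (log2 fold change 1.57 against NC, SE 0.12, adjusted p = 4.86e-06, and 1.30 against Sin3a KD, adjusted p = 1.84e-05). Gadd45gip1, whose product binds Gadd45 proteins, rose by 0.49 against NC (999 ± 37.9 in Hdac1/2 cKD and 716 ± 106 in NC, adjusted p = 0.0343). That call held in 13 of 20 alternatives and ended, among others, without any 1 Hdac1/2 cKD library or NC replicate 2 (0.0841 to 0.114).

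In Sin3a KD against NC 3 Gadd45 partners rose, none fell and 7 did not pass (median 0.37). Called partners made up 30.0% there, against 7.96% of all tested genes, a description of a list chosen with earlier results known. The leading one was Ing1, a chromatin reader that Gadd45a binds and that is itself a subunit of Sin3 complexes. It had normalised counts of 1028, 819 and 772 in Hdac1/2 cKD, 1664, 1222 and 1457 in Sin3a KD libraries, and 732, 794 and 659 in NC. The Sin3a KD libraries lay above all others, with a log2 fold change of 0.98 against NC (SE 0.15, adjusted p = 0.00350). That call ended without the 2 libraries alone on their lanes, NC replicate 1 and Sin3a KD replicate 1 (0.0723), and without trend and robust variances (0.0523). Between the knockdowns Ing1 was lower in Hdac1/2 cKD (-0.73, adjusted p = 0.00498), a call kept in all 20 alternatives. Map3k4 was higher there by 0.55 (adjusted p = 0.0341), a call that held in 11 of 20 alternatives. It ended, among others, without any 1 library of either knockdown (0.0662 to 0.130) and with lane as a factor (0.312). Cdkn1a, the cyclin-dependent kinase inhibitor, rose by 0.48 in Sin3a KD against NC (4642 in Sin3a KD and 3334 in NC, adjusted p = 0.0403), and that call held in 9 of 20 alternatives, with an adjusted p of up to 0.344.

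**Figure D4:**
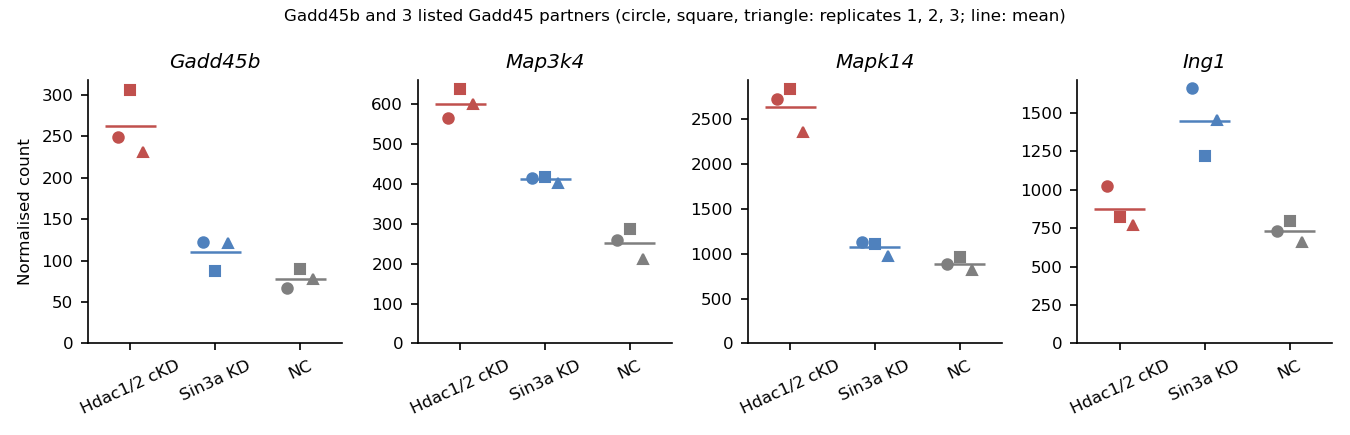
Normalised count (linear axes from 0) of Gadd45b and of the Gadd45 partners Map3k4, Mapk14 and Ing1 in each library, with a line at the mean of each group. Gadd45b, Map3k4 and Mapk14 are highest in the 3 Hdac1/2 cKD libraries, and Ing1 in the 3 Sin3a KD libraries (1222 to 1664).

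Of 10 tested genes of base excision repair, which acts after Tdg, limma called 0 higher and 2 lower in Hdac1/2 cKD against NC, with 3 at an unadjusted p below 0.05 in either direction. These counts were near the shares of all tested genes, of which 15.6% were called and 29.6% had an unadjusted p below 0.05. Parp1, the strand-break sensor, had 7536, 7749 and 6971 in Hdac1/2 cKD, 10360, 10221 and 8808 in Sin3a KD libraries, and 11218, 10037 and 9437 in NC. All Hdac1/2 cKD libraries lay below all others (log2 fold change -0.46 against NC, SE 0.10, adjusted p = 0.00582). That call held in 19 of 20 alternatives and ended without trend and robust variances (0.0578). Lig3, a DNA ligase of this pathway, fell in both knockdowns, to 3481 ± 532 in Hdac1/2 cKD and 3191 ± 290.3 in Sin3a KD against 4606 ± 76.4 in NC (log2 fold changes -0.42 and -0.53, adjusted p = 0.0263 and 0.0146). The Lig3 call ended for Hdac1/2 cKD without NC replicate 1, Hdac1/2 cKD replicate 1 or replicate 3 (0.0644 to 0.125), with lane as a factor (0.0940) and with equal totals (0.0935). For Sin3a KD it ended without Sin3a KD replicate 1 (0.0722) and with lane as a factor (0.161). Of the other glycosylases and cytosine deaminases, 4 of 6 were tested and none passed in any comparison, at an unadjusted p below 0.05 either. The uracil glycosylase Ung had a log2 fold change of -0.15 in Hdac1/2 cKD against NC (95% interval -0.43 to 0.14, adjusted p = 0.501).

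Of the cofactors and regulators of TET enzymes, 10 were tested, and 3 rose, none fell and 7 did not pass in Hdac1/2 cKD against NC. The called genes were 30.0% of those tested, against 15.6% of all tested genes. Lin28a, an RNA-binding protein reported to recruit Tet1, had normalised counts of 4153, 4458 and 4802 in Hdac1/2 cKD, 2251, 2579 and 2033 in Sin3a KD libraries, and 2058, 2480 and 1883 in NC. Its Hdac1/2 cKD libraries lay above all others (log2 fold change 1.07 against NC, SE 0.12, adjusted p = 0.000131). Uhrf2, a reader of oxidised cytosine, rose to 199.7 ± 41.0 in Hdac1/2 cKD against 63.5 ± 28.1 in NC (1.73, adjusted p = 0.0179). That call ended without NC replicate 1, Hdac1/2 cKD replicate 1 or replicate 3 (0.0520 to 0.0737). It also ended with lane as a factor (log2 fold change 1.28, 0.0560) and without trend and robust variances (0.0678). Cxxc5, a CXXC protein that binds Tet2, rose to 224 ± 23.8 in Hdac1/2 cKD against 115 ± 19.4 in NC (0.96, adjusted p = 0.0163), a call that ended without Hdac1/2 cKD replicate 1 (0.0705) or replicate 2 (0.0546). In Sin3a KD against NC 1 of 10 passed. It was Idh1, which makes the cosubstrate of TET enzymes, with 762 ± 170 in Sin3a KD and 1092 ± 53.9 in NC (-0.54, adjusted p = 0.0497), and its call held in 4 of 20 alternatives, with an adjusted p of up to 0.233. In Hdac1/2 cKD Idh1 was at 739, 762 and 882, also below every NC library (1060 to 1154), and did not pass there.

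Of 7 tested stress regulators that can act upstream of Gadd45 genes, 1 rose in Hdac1/2 cKD against NC (14.3%, near the 15.6% of all tested genes called) and none fell. It was Trp53, at 1843, 1838 and 1641 in Hdac1/2 cKD, 1463, 1443 and 1469 in Sin3a KD libraries, and 1284, 1281 and 1103 in NC, so that its groups did not overlap (log2 fold change 0.54 for Hdac1/2 cKD against NC, SE 0.11, adjusted p = 0.00486). In Sin3a KD against NC none of the 7 passed in limma, with 1 at an unadjusted p below 0.05, and Trp53 had a log2 fold change of 0.26 (adjusted p = 0.165). Of all tested genes 7.96% were called there, and 23.9% had an unadjusted p below 0.05.

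The genes whose pattern over the 9 libraries was most like that of a member were taken by Pearson's r on the log2(value + 1) scale, among genes with a mean of at least 50. For Gadd45b these were Pdpn (r = 0.986), Mxi1 (0.986) and Lrp5 (0.976), for Tdg they were Pld2 (0.974), Ckap5 (0.969) and Flrt1 (0.963), and for Tet1 they were Wsb2 (0.960), Cerk (0.944) and Ninl (0.936). For Tet2 they were Coil (0.970), Rfc2 (0.957) and Ing4 (0.930), and for Tet3 they were Mecr (0.956), Pdk1 (0.914) and Npnt (0.904). For Gadd45g they were Txlna (0.982), Itgb4 (0.937) and Trmt5 (0.935), and for Gadd45a they were Rab38 (0.956), Comp (0.955) and Polr1c (0.945). Among the 7 themselves the highest values were 0.851 between Tdg and Tet1, 0.848 between Tdg and Gadd45b, 0.757 between Gadd45a and Gadd45b and 0.750 between Tet2 and Gadd45g. These correlations describe 9 libraries in 3 groups, whose points share their group, their lane and their depth. Those of Tet2 include NC replicate 3, in which Tet2 was at 889.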

How the data were processed

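Polyadenylated RNA of 9 embryo pools was sequenced (NEBNext Ultra libraries), per the labels. The values the authors deposited are signal values, gene-level Salmon counts divided by DESeq2 normalisation factors on build GRCm38, per the submitters' processing notes; versions and transcript set: not given in the sources used here. They are called normalised counts. Whole reads could not be recovered, since in each library 66.5% to 79.2% of low values fell on whole multiples of the smallest step (tolerance 0.1). The labels describe spiked RFP and GFP RNA, but 0 gene names match, so total RNA per embryo was not measured. A line without a gene name (0.00543% to 0.00896% of each library) was left out.

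The 13343 genes with 10 or more in 3 or more of 9 libraries were fitted as log2(value + 1), which understates changes of low genes. All libraries entered 1 fit, with a mean for each group, in limma 3.58.1 (R 4.3.3) with trend and robust variances. Adjusted p-values are Benjamini-Hochberg values over all 13343 genes, and those below 0.05 were called. Members and gene lists were chosen with earlier results of these data known. Some genes that fit the lists are not reported here. The text names all 7 members, the knockdown targets and the 3 genes most like each member. List genes were picked as up to 4 called genes per list and comparison (or the 2 with the lowest p). Not every gene picked this way is named. The fit was tested on simulated data. Coordinates and lengths are from GENCODE vM21 (94.9% of symbols matched once), copies were found with BLAST 2.17.0 (at least 90% identity over 200 bases), and promoters are RefSeq sequences for all 7 genes. Alternatives changed the pseudocount, filter, scaling, variance model, samples, lane, replicate block and transcript length, and left out each library in turn.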

Additional observations from a re-analysis of the deposited data

How the results depend on the processing

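Of 399 refits of the members' fold changes, 363 kept direction and side of the threshold, 10 lost a call, 5 gained one and 21 changed sign, none of them a called change. Equal totals moved the median log2 fold change of all genes by 0.11 for Hdac1/2 cKD and 0.09 for Sin3a KD, both against NC, and by 0.02 between the knockdowns. For the values below, the cause was not tested, other than that fewer libraries enter some fits. "Plain variances" is limma without trend and robust, "lane fit" has lane as a factor, and "shared lanes" leaves out NC replicate 1 and Sin3a KD replicate 1, each alone on its lane.

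In Hdac1/2 cKD against NC, all calls numbered 1369 (plain variances) and 1318 (shared lanes), against 2083. Listed genes called lower numbered 0 (plain variances) and 1 (equal totals, lane fit, shared lanes), against 2. Members called lower numbered 1 with plain variances (Gadd45g) and 1 with the replicate block (Tet2), against 0. Tet3 turned to -0.085 (lane fit) and -0.067 (shared lanes), and the difference in its Tet share to 0.73 points with the longest transcript and 0.0025 undivided by length. In Sin3a KD against NC, all calls numbered 36 (plain variances), 611 (only these groups), 94 (lane fit) and 51 (shared lanes), against 1062. Listed genes called higher numbered 0, 1, 1 and 0 in that order, against 3. Those called lower numbered 0 (plain variances, lane fit, shared lanes) and 1 (pseudocount 0.5, no filter, equal totals, only these groups, replicate block), against 2. Members called lower numbered 1 with the replicate block (Tet2), against 0. Tet1, Tet3, Tdg and Gadd45a turned to 0.083, -0.12, 0.26 and -0.27 (lane fit), and Tet3 and Gadd45a to -0.17 and -0.081 (shared lanes). In Hdac1/2 cKD against Sin3a KD, all calls numbered 1002 (lane fit) and 1384 (shared lanes), against 2304. In the lane fit 0 members and 3 listed genes were called higher, against 3 and 6. Listed genes called lower numbered 1 (plain variances, lane fit, shared lanes) and 4 (only these groups), against 2. Tet2 turned to 0.0051 (equal totals) and 0.43 (lane fit), and Tet3 to 0.032 (lane fit) and 0.10 (shared lanes).

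With 1 library left out, all calls numbered 1271 to 2170 in Hdac1/2 cKD against NC, 337 to 1538 in Sin3a KD against NC and 1426 to 2748 between the knockdowns. Members higher numbered 2 to 3 in the first and 2 to 3 in the last, and members lower 0 to 1 in the first. Listed genes numbered 4 to 8 higher and 1 to 4 lower, 1 to 3 higher and 0 to 2 lower, and 3 to 9 higher and 1 to 3 lower in these comparisons. In Hdac1/2 cKD against NC, Tet3 ranged from -0.067 to 0.59 and its share difference from -1.44 to 1.33 points. In Sin3a KD against NC, Tet1 ranged from -0.43 to 0.0032, Tdg from -0.76 to 0.41 and Gadd45a from -0.19 to 0.26. Between the knockdowns, Tet2 ranged from -0.29 to 0.34 and Tet3 from -0.41 to 0.10.

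Samples of the same number in different groups deviated together little (correlation -0.019 to 0.058), and the main fit left them unpaired. These values do not show whether such samples were collected together. With the replicate as a block, Tet2 had an adjusted p of 0.0184 in Hdac1/2 cKD and 0.0329 in Sin3a KD against NC. The filter on a mean of at least 50 leaves no value for Gadd45a. Tdg and Gadd45a rest on few reads in NC and Sin3a KD libraries, and their intervals are wide (SE 0.52 and 0.45). Tet2 had an SE of 0.50 on more reads in those libraries, and the cause of the widths was not tested.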
